A study of Caenorhabditis elegans with 6 samples.

Results

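The genes described here encode the pathway that degrades phenylalanine and tyrosine, with the enzymes that recycle its pterin cofactor. They were picked by name from the deposited gene table: pah-1, tatn-1, hpd-1, hgo-1, fah-1, pcbd-1 and qdpr-1. All 7 were found among the 25212 genes of that table, and all 7 passed the filter on low expression, as did 13790 genes in total. The libraries came from poly(A)-selected RNA of whole Caenorhabditis elegans, strain N2, the laboratory wild type, with 3 libraries from animals given aspartame (ASP, 100 µM by the stated design) and 3 from animals labelled Control, whose handling is not described further. Neither the developmental stage nor the age of the animals, nor whether they had been placed on Pseudomonas aeruginosa before RNA extraction, is given in the sources used here. Expression is given as FPKM, fragments scaled to transcript length and library depth, which allows levels to be compared between genes of different length. The summed counts of a library ranged from 53558562 to 63581942, and the 7 genes together took 0.0723% to 0.0880% of them.

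Aspartame is a dipeptide ester of aspartic acid and phenylalanine, and its digestion releases phenylalanine. Animals oxidise phenylalanine to tyrosine with phenylalanine hydroxylase, which spends the cofactor tetrahydrobiopterin. Tyrosine is then transaminated, converted to homogentisate, opened to maleylacetoacetate, isomerised, and finally split into fumarate and acetoacetate, which enter central metabolism. In C. elegans, phenylalanine hydroxylase is also needed for a pigment of the cuticle, and mutants of the tyrosine aminotransferase accumulate tyrosine and alter dauer formation and lifespan. The series was made to study innate immunity after aspartame, and the comparison of ASP with Control is read here for the transcripts of this route.

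Whole-animal RNA mixes all tissues, so fewer cells of a type and less RNA per cell cannot be told apart. Markers of intestine (7 of 7 above 1 FPKM in every library), epidermis (5 of 6), body wall muscle (4 of 4), neurons (5 of 5) and germ line (4 of 4) were present, and 0 of these markers were at 0 in all libraries. The libraries of replicate number 3, in both groups, stood apart from numbers 1 and 2. The 8 molting markers summed to 593 FPKM in ASP 3 and 503 FPKM in Control 3, against 116 to 268 FPKM in the other libraries. The 6 yolk protein genes summed to 922 FPKM in ASP 3 and 999 FPKM in Control 3, against 2547 to 3108 FPKM elsewhere. Same-numbered libraries of the groups deviated together across genes (correlations 0.811, 0.524 and 0.822 for numbers 1, 2 and 3), so each ASP library is set beside the Control library of its number. What a number stands for, and whether the libraries came from separate cultures, is not given in the sources used here. All p-values therefore reflect library-to-library spread, part of which may be technical.

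The pathway genes were all well expressed, with means over the 6 libraries between the 60.8th and the 94.0th percentile of the tested genes. The most abundant was hpd-1 at 125 ± 9.92 FPKM (SD, n = 6), followed by tatn-1 at 90.7 ± 12.7, qdpr-1 at 84.4 ± 14.99, fah-1 at 72.4 ± 5.11, pah-1 at 52.2 ± 10.6, hgo-1 at 49.3 ± 4.08 and pcbd-1 at 18.8 ± 3.91 FPKM. In this order, 2 of the 6 neighbouring pairs had ranges that did not overlap. The lowest hpd-1 value, 115.8 FPKM, lay above the highest tatn-1 value, 105.2 FPKM, and the lowest hgo-1 value, 46.8 FPKM, lay above the highest pcbd-1 value, 22.1 FPKM. The ranges of the other neighbours in the order overlapped, although fah-1 exceeded pah-1 within each of the 6 libraries. The order of the middle genes differed by library: tatn-1 was second in 4 libraries, qdpr-1 in ASP 2 and fah-1 in ASP 3.

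**Figure D1:**
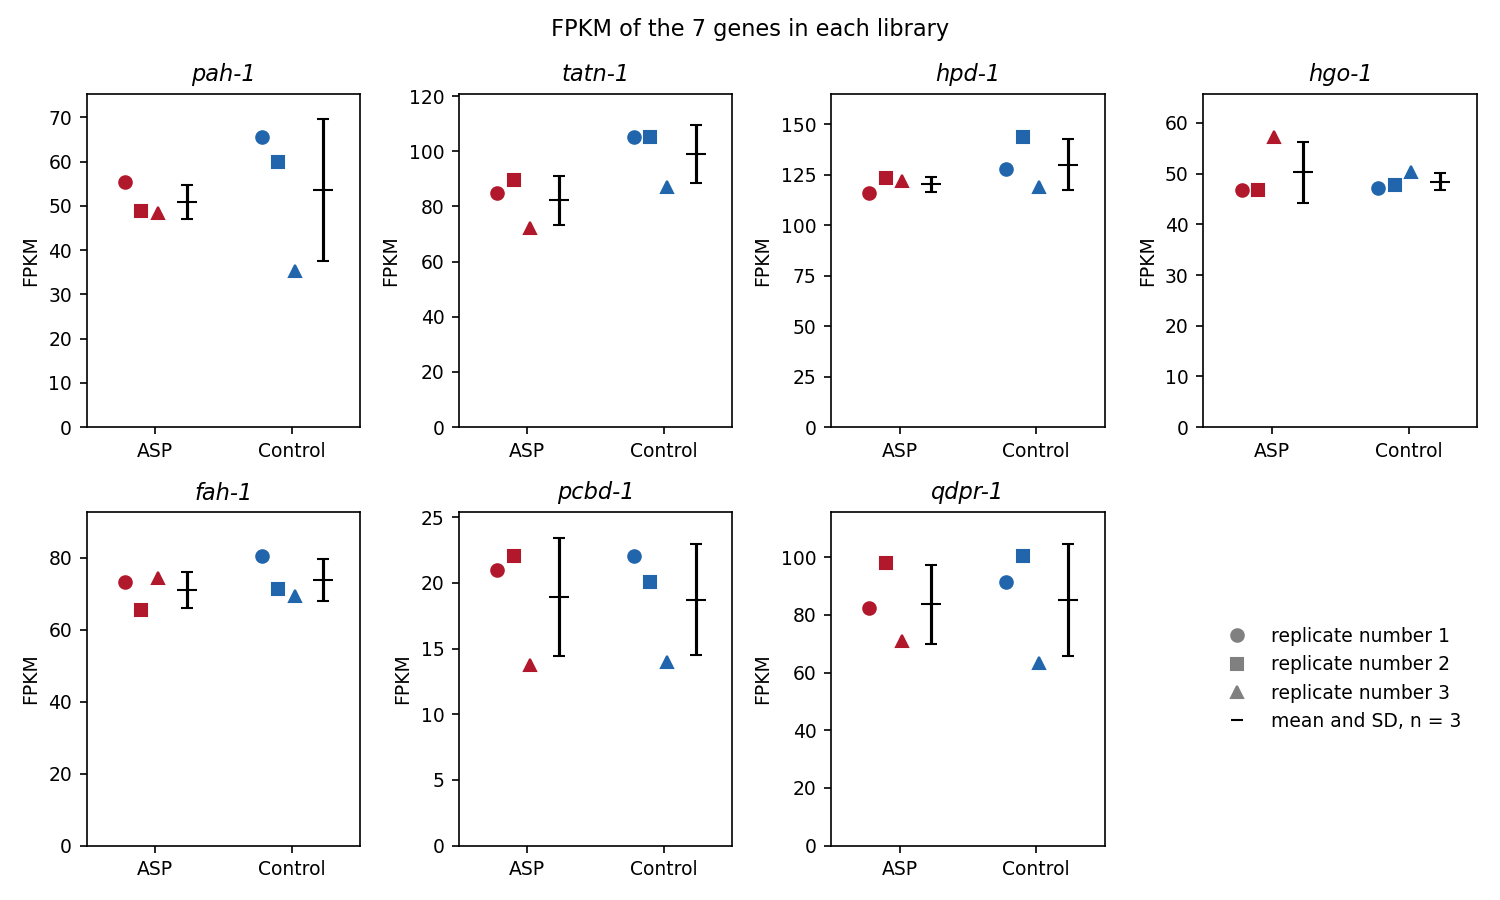
FPKM (vertical axes, from 0) of the 7 genes in the ASP libraries (red) and the Control libraries (blue), with point shapes for replicate numbers 1 to 3 and bars for the mean ± SD of 3 libraries. The groups overlap for all 7 genes, and the triangles of number 3 are the lowest points for pah-1, tatn-1, pcbd-1 and qdpr-1 in both groups.

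The hydroxylase pah-1 (gene 174401, chromosome II 8762622 to 8766997, minus strand, WBcel235) catalyses the first and rate-limiting step, phenylalanine to tyrosine. It had 55.4, 48.9 and 48.3 FPKM in ASP 1, 2 and 3, against 65.5, 59.9 and 35.3 FPKM in Control 1, 2 and 3. Control 1 and 2 were the highest libraries and Control 3 the lowest, so the ASP values lay inside the Control range. The log2 difference was −0.08 (SE 0.20, 95% interval −0.56 to 0.40, adjusted p 0.9999 in edgeR's quasi-likelihood test). The pairs disagreed in sign, with log2 FPKM ratios of −0.24, −0.29 and 0.45 in pairs 1, 2 and 3. Without Control 3 the log2 difference in edgeR was −0.28, and without Control 1 it was 0.075. With both libraries of number 3 left out and the replicate number as a block, which was added once the values were known, it was −0.27 (SE 0.08, adjusted p 0.401 in edgeR). The annotation lists 2 transcripts, K08F8.4a.1 and K08F8.4b.1, with 9 exons each and 457 and 453 codons. The span of pah-1 overlaps nsph-1.1 by 223 bases and K08F8.15 by 30 bases, both on the opposite strand. nsph-1.1 stood at 5.76 to 7.41 FPKM and K08F8.15 at no more than 0.0033 FPKM, against 35.3 to 65.5 FPKM for pah-1. The use of strand in counting is not given, so reads from these overlaps cannot be assigned to either gene.

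The aminotransferase tatn-1 (181574, chromosome X 14791008 to 14792984, plus strand) converts tyrosine to 4-hydroxyphenylpyruvate. It had 84.96, 89.5 and 72.2 FPKM in ASP 1, 2 and 3, against 105.2, 105.1 and 87.1 FPKM in Control 1, 2 and 3. ASP 2 lay above Control 3, so the groups overlapped, but each ASP library was below the Control library of its number (log2 FPKM ratios −0.31, −0.23 and −0.27). The log2 difference was −0.29 (SE 0.10, 95% interval −0.54 to −0.04), which is 0.820-fold. It did not pass over all genes (adjusted p 0.9999 in edgeR, 22nd smallest p of 13790). With the replicate number as a block it was also −0.29 (SE 0.07, 95% interval −0.44 to −0.13, adjusted p 0.997 in edgeR, where 2.68% of the tested genes and 1 of the 7 had an unadjusted p under 0.05). Its estimate lay between −0.36 and −0.22 when any 1 library was left out. Of the 7 genes, 1 was lower in all 3 pairs, tatn-1, and 0 were higher in all 3, where 8.88% of the tested genes were lower and 12.8% higher in all pairs. The summed epidermal markers were 1323, 1307 and 601 FPKM in ASP 1, 2 and 3, against 1593, 1265 and 741 FPKM in Control 1, 2 and 3. The intestinal ones were 1155, 1206 and 855 FPKM in ASP and 1240, 1167 and 855 FPKM in Control, and the part of either tissue in the tatn-1 values was not tested. The gene has 1 transcript of 3 exons and 464 codons and no overlapping gene in the table.

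The dioxygenase hpd-1 (176473, chromosome III 10535526 to 10537680, plus strand) turns 4-hydroxyphenylpyruvate into homogentisate. It had 115.8, 123.1 and 121.7 FPKM in ASP, against 127.7, 143.6 and 118.7 FPKM in Control, for numbers 1, 2 and 3. ASP was lower in pairs 1 and 2 and slightly higher in pair 3, and the groups overlapped. The log2 difference was −0.13 (SE 0.09, 95% interval −0.35 to 0.09, adjusted p 0.9999 in edgeR), and −0.13 with the block (95% interval −0.29 to 0.03).

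The next enzyme, encoded by hgo-1 (172726, chromosome I 9049460 to 9055457, minus strand), opens the ring of homogentisate, and its human counterpart is the enzyme lost in alkaptonuria. Its levels were 46.8, 46.8 and 57.2 FPKM in ASP, against 47.2, 47.7 and 50.3 FPKM in Control, for numbers 1, 2 and 3. The values of numbers 1 and 2 lay within 1 FPKM of each other, and those of number 3 were higher in both groups. The log2 difference of ASP from Control was 0.04 (SE 0.13, adjusted p 0.9999 in edgeR), and 0.03 (SE 0.07) with the block. The span of hgo-1 also holds the tRNA gene W06D4.t1 and the snRNA gene sls-2.6 on the same strand, with at most 4 counts in a library.

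The last step, fumarylacetoacetate to fumarate and acetoacetate, is catalysed by the product of fah-1 (180918, chromosome X 6446746 to 6448916, minus strand), whose human counterpart is lost in hereditary tyrosinaemia and whose depletion in C. elegans damages the intestine. It stood at 73.3, 65.4 and 74.4 FPKM in ASP, against 80.6, 71.4 and 69.5 FPKM in Control. The groups overlapped, and the log2 difference was −0.07 (SE 0.10, 95% interval −0.32 to 0.17, adjusted p 0.9999 in edgeR). With the block it was also −0.07 (SE 0.07, 95% interval −0.23 to 0.08).

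Both recycling enzymes regenerate tetrahydrobiopterin after each turn of the hydroxylase. The dehydratase pcbd-1 (188368, chromosome I 6951135 to 6951982, plus strand) had 20.96, 22.1 and 13.8 FPKM in ASP, against 22.1, 20.1 and 13.97 FPKM in Control. The reductase qdpr-1 (176762, chromosome III 13393910 to 13394979, plus strand) had 82.2, 97.9 and 70.8 FPKM in ASP, against 91.3, 100.6 and 63.4 FPKM in Control. Both genes were lowest in the libraries of number 3 of either group, as were pah-1 and tatn-1. The log2 differences were 0.0026 (SE 0.23) for pcbd-1 and −0.04 (SE 0.17) for qdpr-1, and neither passed (adjusted p 0.9999 in edgeR). With the replicate number as a block they were −0.0055 (SE 0.12) and −0.03 (SE 0.07). The estimate for pcbd-1 fell on the other side of 0 in 6 further settings. It did so as well with ASP 1 (−0.0585), ASP 2 (−0.13) or Control 3 (−0.14) left out. The span of pcbd-1 overlaps T10B11.8 on the opposite strand by 93 bases, and T10B11.8 stood at 9.44 to 13.8 FPKM. Whether counting used strand is not given in the sources used here, so reads from that overlap cannot be assigned to either gene.

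Set together, 5 of the 7 genes were lower and 2 higher in ASP (median log2 −0.07, against 0.0002 over all tested genes), and 50% of the tested genes were lower. The edgeR test called 0 of the 7 and 0 of 13790 genes (0%), with 62 genes (0.45%) at an unadjusted p under 0.05, among them tatn-1. DESeq2 and limma on log2(FPKM + 1) also called 0 genes, with 73 and 71 at an unadjusted p under 0.05. In pair 1, 7 of the 7 genes were lower in ASP, where 45.2% of the tested genes were. In pair 2, 6 were lower, where 57.2% of the tested genes were. In pair 3, 2 were lower and 5 higher, where 39.2% of the tested genes were lower. The replicate groups of 3 cannot reach a two-sided p below 0.1 in an exact permutation test. Without the replicate block, the 95% intervals in edgeR ran from 0.679-fold to 1.32-fold for pah-1 and from 0.784-fold to 1.07-fold for hpd-1. With the block they ran from 0.794-fold to 1.18-fold for pah-1 and from 0.821-fold to 1.02-fold for hpd-1.

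**Figure D2:**
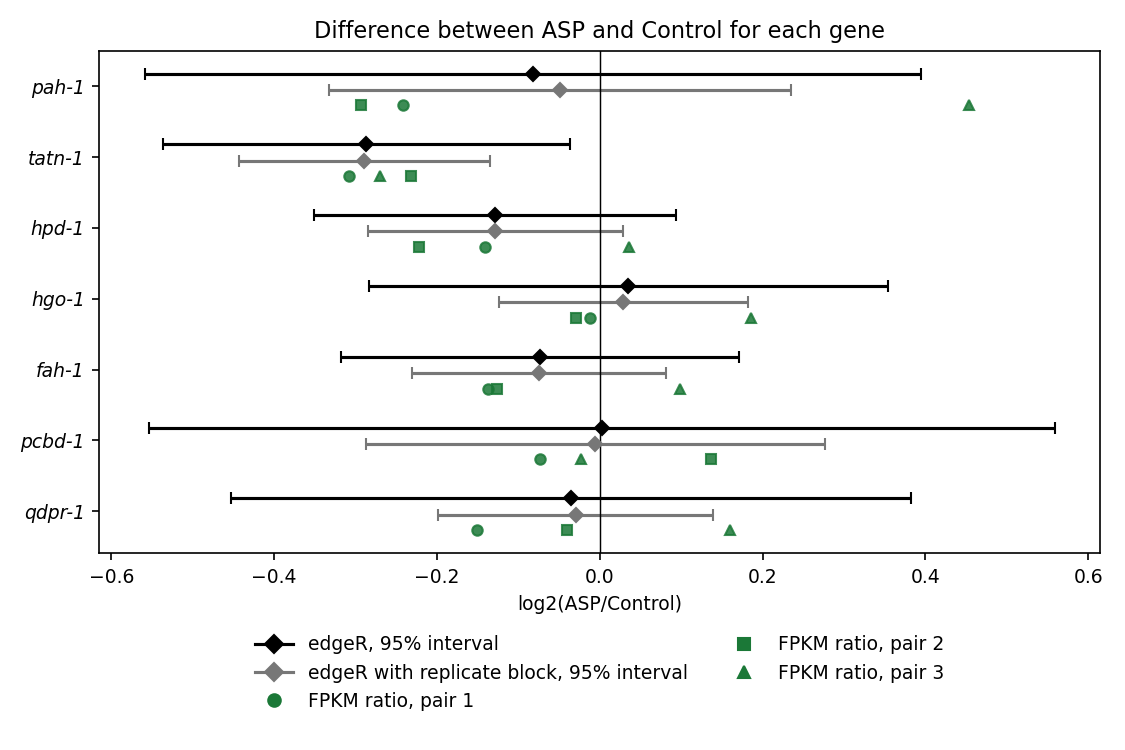
Log2 of ASP over Control (horizontal axis) for each of the 7 genes from edgeR without (black) and with (grey) the replicate number as a block, bars being 95% intervals, and the FPKM ratios of pairs 1, 2 and 3 (green circle, square and triangle). All pair values of tatn-1 lie between −0.31 and −0.23, while those of pah-1 run from −0.29 to 0.45.

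Ratios between genes of the route, taken within a library on FPKM, do not depend on the depth of that library. The ratio of tatn-1 to pah-1 was 1.53, 1.83 and 1.49 in ASP 1, 2 and 3, against 1.61, 1.76 and 2.47 in Control 1, 2 and 3. Control 3 was the highest of the 6 for this ratio. The ratio of hpd-1 to tatn-1 was 1.36, 1.38 and 1.68 in ASP, against 1.21, 1.37 and 1.36 in Control, higher in ASP within each number, with the values of pair 2 closest together. Further down, hgo-1 stood at 0.332 to 0.470 of hpd-1 and fah-1 at 1.3 to 1.71 times hgo-1 in the 6 libraries. The ratio of qdpr-1 to pcbd-1 was 3.92 to 5.15, with ASP at 4.50 ± 0.614 and Control at 4.56 ± 0.437 (SD, n = 3 each).

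Some of these genes differed by replicate number. In an edgeR fit with group and number as terms, 3 of the 7 genes differed between number 3 and number 2, where 24.3% of all tested genes did: 1 higher, where 12.1% of the tested genes were, and 2 lower, where 12.2% were. qdpr-1 averaged 67.1 FPKM in number 3 and 99.2 FPKM in number 2 (log2 −0.47, SE 0.09, adjusted p 0.00720 in edgeR, 2 libraries a number). pcbd-1 averaged 13.9 FPKM in number 3 and 21.1 FPKM in number 2 (log2 −0.51, SE 0.15, adjusted p 0.0418 in edgeR). hgo-1 went the other way, with 53.8 FPKM in number 3 and 47.3 FPKM in number 2 (log2 0.28, SE 0.08, adjusted p 0.0403 in edgeR). Number 3 thus had both cofactor enzymes lower and the ring-opening dioxygenase higher. DESeq2 and limma did not call hgo-1 here (adjusted p 0.0604 and 0.187), and without the filter on low expression none of the 3 genes was called by edgeR (adjusted p 0.0629 to 0.112).

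The same 3 genes differed between number 3 and number 1, a share near the 37.5% of all tested genes that did (18.3% higher and 19.1% lower). The log2 differences were −0.53 (SE 0.15, adjusted p 0.0248 in edgeR) for pcbd-1 and −0.27 (SE 0.09, adjusted p 0.0449) for qdpr-1, which DESeq2 (adjusted p 0.0833) and median-of-ratios scaling in edgeR (0.0512) did not call. For hgo-1 the log2 difference was 0.29 (SE 0.08, adjusted p 0.0240 in edgeR, but 0.143 in limma). Without the filter edgeR called none of these 3 genes here either (adjusted p 0.0664 to 0.129). pah-1 averaged 41.8 FPKM in number 3 and 60.5 FPKM in number 1 (log2 −0.43, SE 0.15), which did not pass (adjusted p 0.0538 in edgeR). It was called by DESeq2 (adjusted p 0.0221), limma (0.0488) and edgeR without the group term (0.0323). With median-of-ratios scaling (0.0579) or no filter (0.231) edgeR did not call it. Of the libraries of number 3, ASP 3 had 48.3 FPKM and Control 3 had 35.3 FPKM. Between number 2 and number 1, 0 of the 7 genes were called by edgeR, DESeq2 or limma, where edgeR called 3.84% of all tested genes, and 0 of the 7 had an unadjusted p under 0.05, where 18% of them did. Over all genes the calls of number 3 against 2 were 1670 higher and 1676 lower in edgeR, and 1096 higher and 2098 lower in limma on FPKM. For number 3 against 1 they were 2527 higher and 2640 lower in edgeR, and 1884 higher and 3323 lower in limma. The median log2 over all tested genes was −0.088 against number 2 and −0.097 against number 1 in limma. In edgeR these medians were −0.0024 and −0.0098.

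These calls rested on few libraries. For number 3 against 2, hgo-1 and pcbd-1 were no longer called without ASP 1, ASP 2, ASP 3, Control 1 or Control 2 (adjusted p in edgeR 0.0762 to 0.201 for hgo-1 and 0.0509 to 0.271 for pcbd-1), and qdpr-1 without ASP 2 (0.0736) or Control 2 (0.0597). For number 3 against 1, hgo-1 and pcbd-1 were no longer called without ASP 1, ASP 3 or Control 1 (0.0947 to 0.278 and 0.0664 to 0.201 in edgeR), and qdpr-1 stayed called only without ASP 3 (0.0134) and was at 0.0686 to 0.489 otherwise. The direction of all 3 genes was the same in each of these fits. pah-1 was called lower in number 3 without ASP 3 (adjusted p 0.000301 against number 2 and 2.34e-05 against number 1 in edgeR) and, against number 1, without ASP 1 (0.00730). Leaving out a library leaves its number with 1 library, so in these fits number 3 is Control 3 alone, or number 1 is Control 1 alone, and the lone library is assumed to vary like the others. Against number 2 its log2 difference was 0.03 without Control 3. The molting, yolk, epidermal and intestinal marker sums move with replicate number as well, and their part in these differences was not tested.

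**Figure D3:**
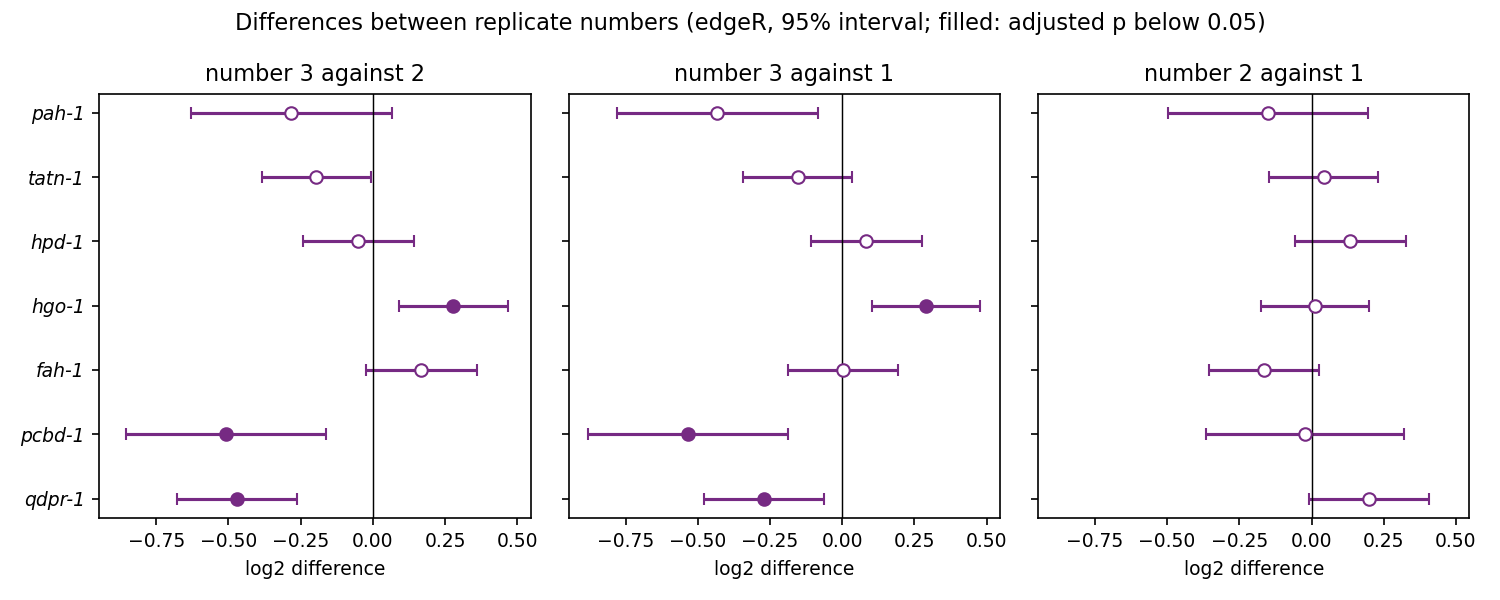
Log2 differences between replicate numbers (horizontal axes) for the 7 genes, number 3 against 2, number 3 against 1 and number 2 against 1, from an edgeR fit with group as a term; bars are 95% intervals and filled points have an adjusted p under 0.05. pcbd-1 and qdpr-1 lie below 0 and hgo-1 above 0 in both comparisons of number 3, and no point is filled for number 2 against 1.

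**Figure D4:**
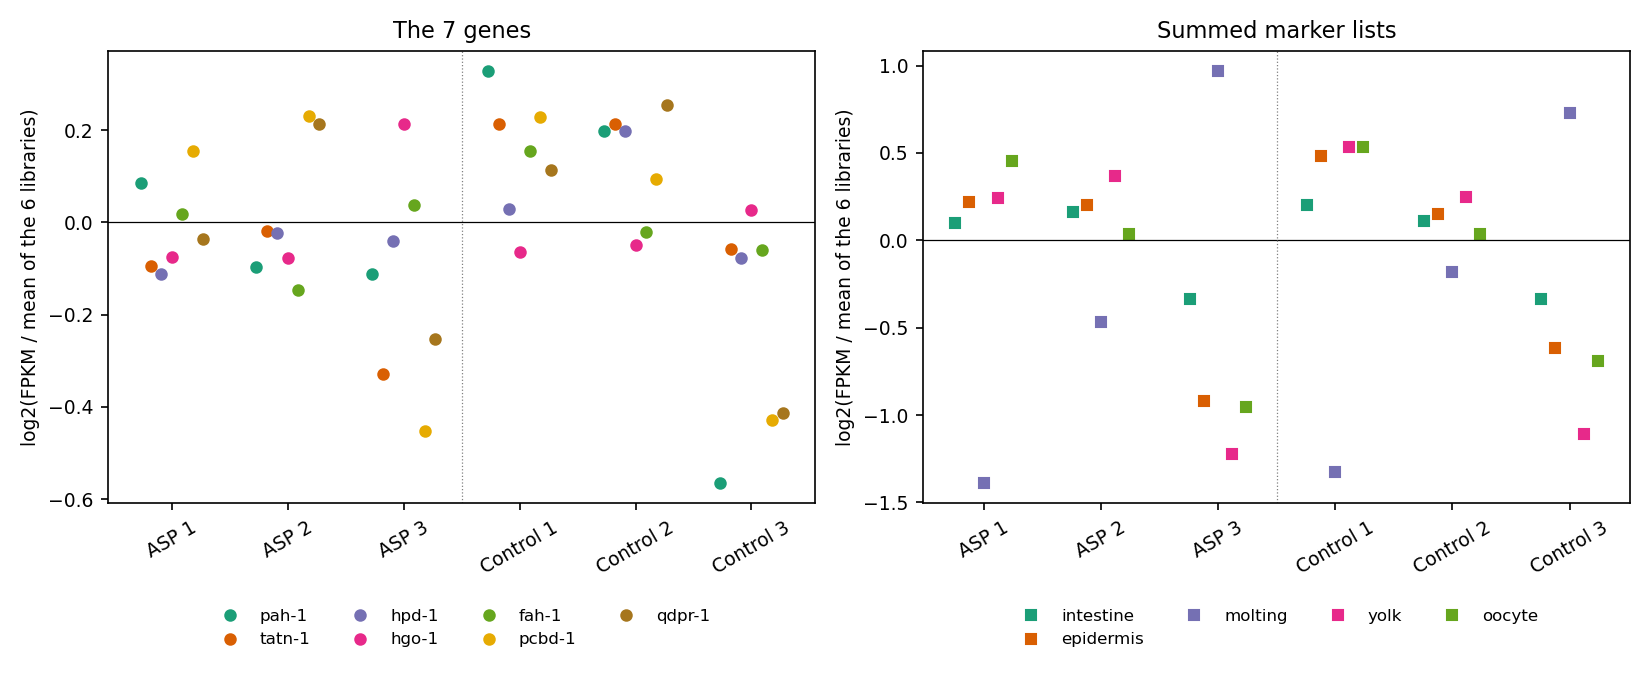
Log2 of FPKM over the mean of the 6 libraries for the 7 genes (left) and for the summed markers of 2 tissues and 3 stage lists (right), by library, ASP left of Control. In ASP 3 and Control 3 the molting sum lies above its mean and the yolk sum below. There pah-1, tatn-1, hpd-1, pcbd-1 and qdpr-1 lie below theirs and hgo-1 above, while fah-1 lies above only in ASP 3.

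Among themselves the 7 genes did not share 1 pattern. The root mean square difference between centred log2(FPKM + 1) values over the 6 libraries had a median of 0.208 over the 21 pairs of these genes, from 0.127 for hgo-1 and fah-1 to 0.370 for hgo-1 and pcbd-1. By this measure pcbd-1 and qdpr-1 were 0.131 apart and tatn-1 and hpd-1 0.138 apart. Among all tested genes hpd-1 ranked 608th in nearness to tatn-1, qdpr-1 860th to pcbd-1 and fah-1 only 2203rd to hgo-1. The distance of hgo-1 and fah-1 exceeds the root mean square spread of either around its own mean (0.102 and 0.0911). The genes nearest to pah-1 were VH15N14R.1 (0.0403) and lea-1 (0.0465), and those nearest to tatn-1 were F27C1.4 (0.0546) and fkh-8 (0.0555). The nearest to hpd-1 were F11C1.1 (0.0300) and cdh-1 (0.0320), to hgo-1 Y37A1B.17 (0.0174) and eif-3.L (0.0255), and to fah-1 pgk-1 (0.0231) and C48B4.6 (0.0294). The nearest to pcbd-1 were C16C8.12 (0.0140) and Y54E10A.17 (0.0154), and to qdpr-1 Y65B4BL.3 (0.0320) and math-40 (0.0400). With 6 libraries that share replicate numbers, these neighbours are a description only.

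The step between hgo-1 and fah-1, the isomerisation of maleylacetoacetate, was followed through 2 genes of the glutathione transferase family, gst-42 and gst-43; the deposited annotation gives the phenylalanine catabolism term to Y53G8B.1 as well, which was not on the list. gst-43 had 9.87, 11.4 and 12.9 FPKM in ASP 1, 2 and 3, against 9.03, 9.01 and 9.28 FPKM in Control 1, 2 and 3. All ASP libraries lay above all Control libraries. Groups that did not overlap, in either direction, were found for 3.39% of the tested genes and for 0 of the 7 pathway genes. The log2 difference was 0.30 (SE 0.19, adjusted p 0.9999 in edgeR) and did not pass. gst-42 had 36.6, 41.8 and 45.4 FPKM in ASP, against 37.7, 40.6 and 35.5 FPKM in Control (log2 0.11, SE 0.12), with overlapping groups.

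Of the 6 listed genes for tetrahydrobiopterin synthesis and use, 4 were tested and 0 were called in ASP against Control (3 higher and 1 lower, median log2 0.01). ptps-1, the pyruvoyltetrahydropterin synthase, had the smallest p (log2 0.09, SE 0.23). Against number 2, number 3 had 3 of the 4 called lower and 1 called higher, where 12.2% of all tested genes were called lower and 12.1% higher. cat-4, the GTP cyclohydrolase that starts cofactor synthesis, had 53.2 and 37.3 FPKM in ASP 3 and Control 3, against 104.6 and 112.0 FPKM in ASP 2 and Control 2 (log2 −1.18, SE 0.13, adjusted p 0.000483 in edgeR). ptps-1 (log2 −0.58, adjusted p 0.0185 in edgeR) and gfrp-1, a regulator of the cyclohydrolase (−0.66, adjusted p 0.0298), were lower with it. agmo-1, a monooxygenase that uses the same cofactor, was higher in number 3 (log2 1.48, SE 0.10, adjusted p 7.94e-05 in edgeR). It was also higher in number 2 than in number 1 (log2 0.46, adjusted p 0.0402 in edgeR), the 1 of the 4 called there. Between number 3 and number 1, gfrp-1 was not called (log2 −0.49, adjusted p 0.0611 in edgeR).

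Genes that use tyrosine outside degradation, for amines and for tyrosinases, gave 0 calls among 7 tested of 10 listed in ASP against Control (3 higher, 4 lower, median log2 −0.07), with tyr-6 first by p (0.13, SE 0.24). Between number 3 and number 2, where 12.2% of all tested genes were called lower and 12.1% higher, 4 of the 7 were called lower, tbh-1 (log2 −1.26), tyr-4 (−0.91), tyr-1 (−1.0) and tdc-1 (−0.67), and tyr-6 was called higher (0.61). tdc-1 was also lower in number 2 than in number 1 (log2 −0.46, adjusted p 0.0321 in edgeR), the 1 of the 7 called there. Tryptophan degradation, the parallel route for another aromatic amino acid, had 1 gene higher and 7 lower of 8 tested in ASP (median log2 −0.05, 0 called), with kmo-1 first by p (−0.16, SE 0.23). In number 3 against 2, 3 of its 8 tested genes were called higher and 3 lower, where 24.3% of all tested genes were called. tdo-2, whose enzyme opens this route, was higher (log2 0.61, SE 0.08), as was nkat-3 (0.44), and haao-1 was lower (−0.93, SE 0.12). umps-1, the listed gene for uridine monophosphate synthetase, an enzyme of pyrimidine synthesis, was higher too (log2 0.82). The list of other aminotransferases also held sptl-1, a serine palmitoyltransferase gene. This list had 3 higher and 4 lower of 7 tested in ASP (median −0.0008, the value of sptl-1, 0 called), with got-1.2 at −0.14 (SE 0.16). In number 3 against 2, 2 of the 7 were called, both higher, agxt-1 (log2 0.56) and got-1.2 (0.37), a share near the 24.3% of all tested genes. The list for fumarate and acetoacetate disposal also held sdha-1, whose enzyme makes fumarate, and B0272.3, a 3-hydroxyacyl-CoA dehydrogenase gene. Of its 7 tested genes, 2 were higher and 5 lower in ASP (median −0.04, 0 called), with mdh-1 at −0.12 (SE 0.10). In number 3 against 2, 2 of these 7 were called, again near the 24.3% of all tested genes: B0272.3 was higher (log2 0.63) and C05C10.3 lower (−0.28). C05C10.3 was also lower in number 2 than in number 1 (log2 −0.76, adjusted p 0.00326 in edgeR), the 1 of the 7 called there. The regulators linked to tyrosine aminotransferase, from the insulin, SKN-1 and AMP kinase pathways, were 5 higher and 3 lower of 8 (median 0.03, 0 called), with skn-1 at −0.10 (SE 0.08). In number 3 against 2, 1 of the 8 was called, where 24.3% of all tested genes were: daf-2, the insulin receptor gene, was lower (log2 −0.33, adjusted p 0.0473 in edgeR).

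**Figure D5:**
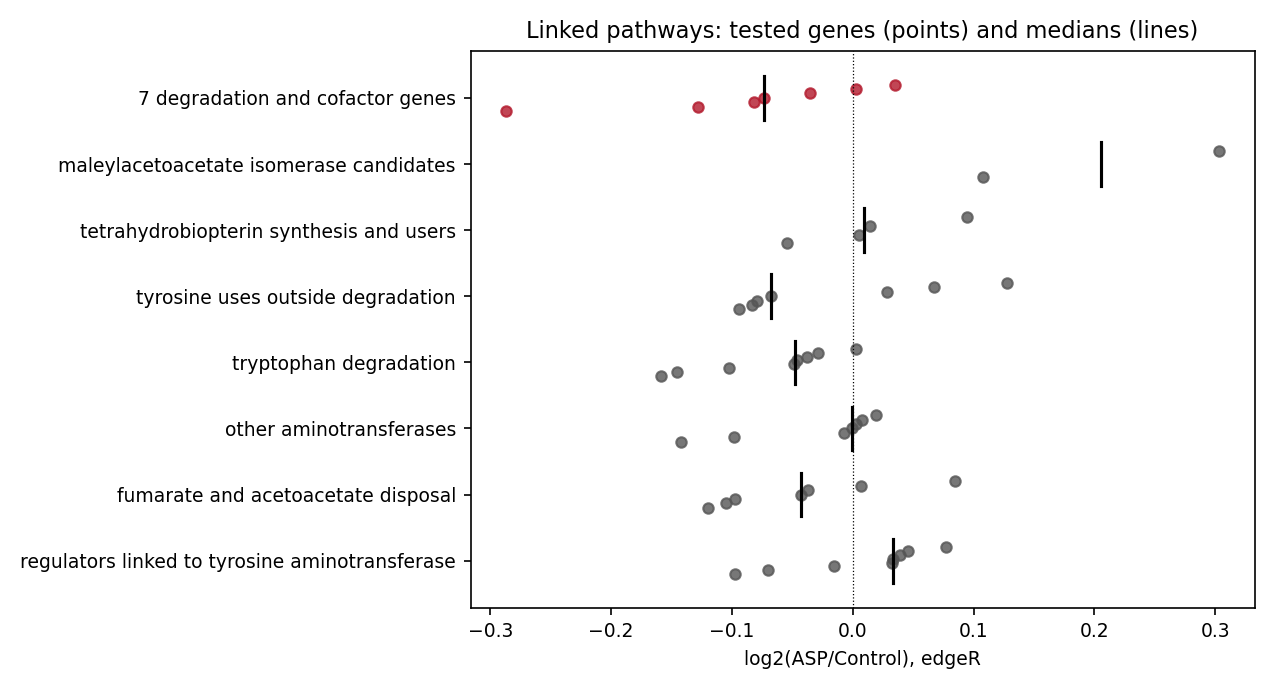
Log2 of ASP over Control from edgeR (horizontal axis) for the 7 degradation and cofactor genes (red) and the tested genes of 7 linked lists (grey), with a line at each median. The median of the red points is −0.07, tatn-1 is the leftmost of all points and gst-43 the rightmost.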

How the data were processed

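The deposited table holds FPKM values, scaled by the authors to transcript length and depth per the file headers, and estimated counts per gene, deposited as whole numbers. No source used here names the aligner, the counting tool or the use of strand. CASAVA 1.4 is listed in the submitters' processing notes, as are mm9 and mm10, which are mouse builds, whereas the chromosome accessions in the table are those of WBcel235. The starts and ends of the 7 genes equal those in the Ensembl annotation of that build.

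The counts of the 13790 genes averaging 1 FPKM or more were tested in R 4.3.3 by edgeR 4.0.16 (TMM, quasi-likelihood). P-values were adjusted over all of them by Benjamini-Hochberg, at a threshold of 0.05. Replicate numbers were compared in a fit with group and number as terms. The replicate block was an alternative. The numbers were read as pairing the libraries, because same-numbered libraries deviated together, each matching its own number best. Deviations were taken from the mean of the 3 libraries of a group. The shift of number 3 can therefore add to the correlations of numbers 1 and 2. Other alternatives were DESeq2 1.42.0, limma 3.58.1 on log2(FPKM + 1), other scalings and filters, and each library left out. The scripts were tested on simulated data. The genes and lists were chosen with earlier results of these data known. Always named were the 7 genes, their 2 nearest genes each, and from each list the members past the threshold, up to 4, or the 1 with the smallest p; other names were chosen after their values were seen. The list entries got-1.1, got-1.3 and T02G5.8 had no match by symbol. A planned search of promoters for motifs was not run.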

Additional observations from a re-analysis of the deposited data

How the results depend on the processing

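In ASP against Control no gene was called by edgeR, DESeq2 or limma in any setting with all 6 libraries, with or without the replicate block (369 genes at an unadjusted p under 0.05 in edgeR with the block), nor with any 1 library left out (0 to 0 genes). With the block and both libraries of a number left out, edgeR called 3 genes without number 1 and 39 without number 3, none of them among the 7; these settings were chosen after seeing the data, and the fits had only 2 numbers to measure spread with. tatn-1 stayed below 0 in each setting (−0.34 to −0.27) and uncalled. The sign of pcbd-1 turned with the replicate block (−0.0055), DESeq2 (−0.0005), DESeq2 with the block (−0.0094), median-of-ratios scaling (−0.0007), no filter (−0.0002), and the block without number 2 (−0.096). With the block, pah-1 turned without number 1 (0.058) or number 2 (0.057), qdpr-1 without number 1 (0.039) and hgo-1 without number 3 (−0.018). With 1 library left out the ranges were −0.14 to 0.17 for pcbd-1, −0.28 to 0.075 for pah-1, −0.18 to 0.074 for qdpr-1 and −0.092 to 0.11 for hgo-1. The cause was not tested.

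Between replicate numbers, counts of calls without the FPKM filter were 1195, 3116 and 9 (3 against 2, 3 against 1, 2 against 1), in place of 3346, 5167 and 530. For number 2 against 1, DESeq2 called 875 and limma 297. With 1 library left out the counts ran from 1402 to 3612, 3253 to 5093 and 78 to 1546. For 3 against 2 they were 1402 without ASP 2 and 1481 without Control 2, and for 3 against 1 they were 3391 without ASP 1 and 3253 without Control 1. For 2 against 1 they were 195 without ASP 2, 78 without Control 2, 1546 without ASP 3 and 1511 without Control 3. In number 3 against 1, limma turned hpd-1 (−0.017) and fah-1 (−0.096). With 1 library left out, fah-1 ran from −0.076 to 0.088 against number 1, and pah-1 from −0.62 to 0.026 and hpd-1 from −0.12 to 0.016 against number 2. In number 2 against 1 the ranges were −0.32 to 0.022 for pah-1, −0.014 to 0.11 for tatn-1, −0.035 to 0.060 for hgo-1 and −0.15 to 0.11 for pcbd-1. limma called tatn-1 lower in number 3 (adjusted p 0.0357 against number 2 and 0.0383 against number 1), and pah-1 lower against number 1 (0.0488).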

Other observations

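cat-2, the tyrosine hydroxylase of dopaminergic neurons, which uses tetrahydrobiopterin as pah-1 does, fell under the filter on low expression and so took no part in the comparisons. It had 0.561, 0.429 and 0.550 FPKM in ASP 1, 2 and 3, against 0.251, 0.176 and 0.229 FPKM in Control 1, 2 and 3, with 72 to 87 counts per library in ASP and 28 to 42 in Control. All ASP libraries lay above all Control libraries, with pair log2 ratios of 1.16, 1.28 and 1.27. In the edgeR fit without the filter its log2 difference was 1.21 (SE 0.30, adjusted p 0.9998), which did not pass over 25212 genes. Of the 48 genes of the 7 linked lists found in the table, cat-2 and gst-43 were the 2 whose groups did not overlap. Among the 43 of them that were tested it was 1, gst-43, where 3.39% of all tested genes had groups that did not overlap. For the tested genes the count is thus near the background. That share does not cover genes under the filter, such as cat-2. cat-2 was singled out after its values were seen. tph-1, the tryptophan hydroxylase of serotonergic neurons, had 0.491, 0.407 and 0.546 FPKM in ASP and 0.597, 0.394 and 0.374 FPKM in Control, with overlapping groups. The deposited annotation gives the term for phenylalanine catabolism to 9 genes, 6 of them among the 7 described (all but pcbd-1), and to gst-42, gst-43 and Y53G8B.1.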
